A study of Homo sapiens with 4 samples.

Results

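The epidermal growth factor (EGF) receptor family and its ligands were followed in MDA-MB-231 cells, a human triple-negative breast cancer line, with and without a knockdown of AURKA, which encodes the mitotic kinase Aurora A. The 10 genes were chosen by name: the receptors EGFR, ERBB2 and ERBB3, the ligands AREG, EREG, HBEGF, TGFA, BTC and NRG1, and the receptor inhibitor ERRFI1. All 10 were found among the 20137 genes of the tables, and all 10 were among the 12137 genes tested, those that reached 1 FPKM in 2 or more libraries. FPKM, the unit read from the deposited values, corrects fragment numbers for transcript length and for depth, so levels may be set against each other between genes. BTC passed that filter through the knockdown libraries alone. RNA was sequenced from 2 control libraries and 2 libraries with AURKA knockdown, described as biological replicates. The controls carry the title code shC and the knockdown shA, and the design text calls the controls mock-transfected, so whether they held a hairpin is not known here. All libraries come from the same line, grown in L-15 medium with serum. The agent used for the knockdown and its sequence were not given in the sources used here.

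EGF-type ligands are made as precursors anchored in the cell membrane and are released by metalloproteases of the ADAM family. TGFA and AREG bind EGFR. EREG, HBEGF and BTC bind EGFR and ERBB4, and NRG1 binds ERBB3 and ERBB4. ERBB2 has no known ligand and pairs with the other receptors, and ERBB3 has a weak kinase and signals mainly through such pairs. ERRFI1, also called MIG6, binds the kinase domain of EGFR, blocks it, and is itself induced by growth factor signaling. MDA-MB-231 cells express EGFR and carry a mutant RAS, which acts downstream of these receptors.

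The labels give each library a replicate number, 1 or 2, and describe biological replicates. Tables with the same replicate number list their rows in 1 order, and the order changes with the number, and 1707 transcripts carried another locus in the replicate 2 tables. Each number holds 1 control and 1 knockdown library, and what the number stands for beyond a biological replicate is not stated. Two-sided limma fits on log2(FPKM + 1) were made without the replicate number, as the main comparison, and with the number as a term (the replicate term). A gene is called here when its Benjamini-Hochberg adjusted p over all tested genes was under 0.05. AURKA itself was at 124 and 99.1 FPKM in control cells and 22.3 and 23.7 FPKM in knockdown cells. Summed FPKM lay between 718976 and 761641, and rough depths estimated from the value of 1 read lay between 17000000 and 28000000 fragments. All 5 markers of the line (VIM, CD44, AXL, CAV1, MSN) were high, with summed levels of 2930 to 3060 FPKM in the controls and 2600 to 2690 FPKM in the knockdown. Of the 7 luminal markers ESR1, PGR and CDH1 stayed under 1 FPKM, while GATA3 was at 2.07 to 2.36 FPKM, EPCAM at 2.49 to 3.3 FPKM, FOXA1 at 4.15 to 5.66 FPKM and KRT8 at 237 to 259 FPKM. Under 1 FPKM were also the leukocyte markers PTPRC and CD3E and the endothelial markers VWF and CDH5. CD68, also a lysosomal gene, was at 64.1 FPKM in both controls and at 47.6 and 52.6 FPKM after knockdown. Of 4 fibroblast markers only COL1A1 passed 1 FPKM, at 3.61 FPKM at most.

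HBEGF, a heparin-binding ligand, was lower in the knockdown by almost the same amount in both replicate numbers, and AREG, amphiregulin, was lower as well, with a size that rested on 1 control library. EGFR, ERBB2, TGFA, NRG1 and ERRFI1 differed by 1.2-fold or less between group means. ERBB3 was at 2.03-fold lower mean level, near the filter level of 1 FPKM. Without the replicate term 0 of the 10 genes were called, as were 0 of all tested genes (0%), of which 777 had an unadjusted p under 0.05. Without any difference a share of 0.05 of the 12137 tested genes would fall there on average. The 777 are somewhat more than that share, but none was called after adjustment. No single gene among them is therefore read as different. With the replicate number as a term 2 of the 10 were called, HBEGF and AREG, both lower. Among all tested genes that fit called 427 (3.52%), 1.92% lower and 1.6% higher in the knockdown. Both knockdown libraries lay below both controls for 2 of the 10 genes, HBEGF and ERBB3, against 16.6% of all tested genes. For 19.4% of all tested genes both lay above both controls. BTC was the member with that order, which its passing of the filter through the knockdown libraries alone had fixed, so nothing is read from it.

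**Figure D1:**
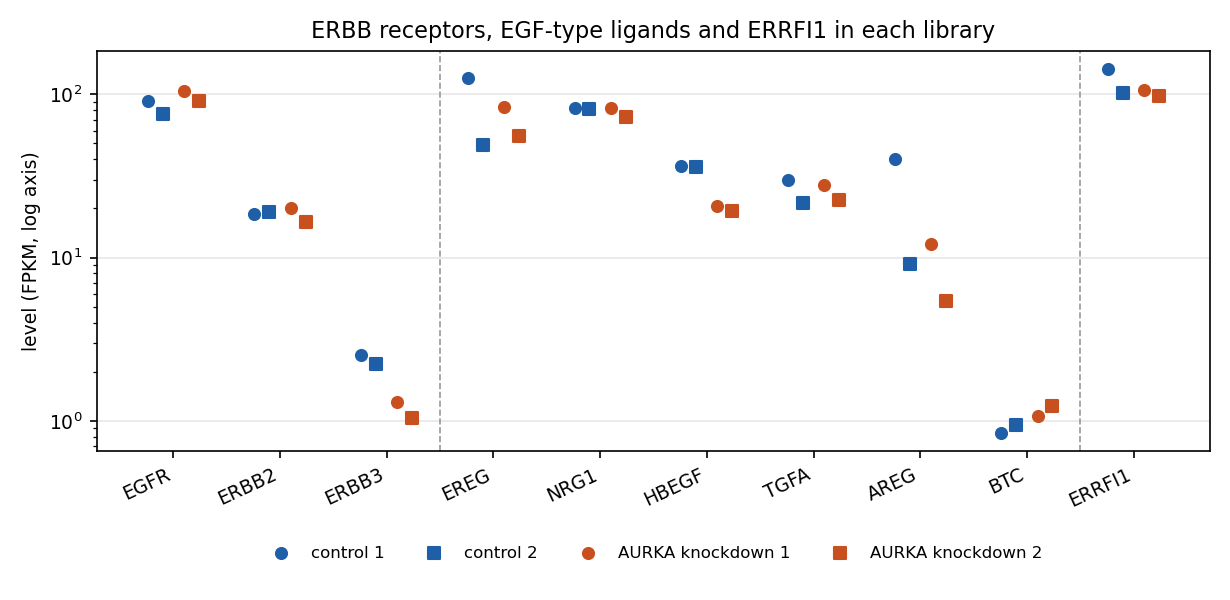
Level of each gene in each library, in FPKM on a log axis, with controls in blue, knockdown in orange, circles for replicate 1 and squares for replicate 2; dashed lines part receptors, ligands and the inhibitor ERRFI1. HBEGF sits at 36.2 FPKM (control 1) and 35.9 FPKM (control 2), compared with 20.6 and 19.4 FPKM in the knockdown libraries, while AREG has 1 high control at 40.2 FPKM.

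HBEGF (ENSG00000113070, chromosome 5, 139712427 to 139726216, GRCh37) was at 36.2 and 35.9 FPKM in the control libraries, against 20.6 and 19.4 FPKM after knockdown. The controls differed by 1.01-fold and the groups did not overlap. The means were 36.1 ± 0.216 and 20.0 ± 0.807 FPKM (SD, n = 2 each), 1.81-fold lower in the knockdown. The log2 difference was -0.79 in replicate 1 and -0.86 in replicate 2. The fitted difference was -0.82 with a standard error of 0.12 and an adjusted p of 0.299 in limma without the replicate term, and 0.09 and 0.0087 with it. Nearly all of its level came from a single annotated transcript, ENST00000230990, at 35.8, 35.9, 20.3 and 19.1 FPKM in control 1, control 2, knockdown 1 and knockdown 2. Rough fragment numbers behind these values were 1000 to 2100 per library, so counting error was small beside the difference. In both controls HBEGF stood above TGFA, and in both knockdown libraries it stood below TGFA. Set against its receptor, the ratio of HBEGF to EGFR was 0.397 and 0.477 in the controls and 0.196 and 0.214 in the knockdown. Fits with the replicate term called HBEGF under 9 of 10 settings, the exception being no filter on low values, with an adjusted p of 0.12.

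AREG (ENSG00000109321, chromosome 4, 75310850 to 75320726, GRCh37) was at 40.2 and 9.12 FPKM in control cells and 12.1 and 5.4 FPKM in knockdown cells. Control replicate 1 was 4.41-fold above control replicate 2, and the groups overlapped, since knockdown replicate 1 lay above control replicate 2. Within each replicate number the knockdown was lower, with log2 differences of -1.65 in replicate 1 and -0.66 in replicate 2. The means were 24.7 ± 22.0 and 8.76 ± 4.76 FPKM (SD, n = 2 each). The fitted log2 difference was -1.16, with a standard error of 0.7 and an adjusted p of 0.854 without the replicate term, and 0.21 and 0.0396 with it. That standard error of 0.21 draws on the spread of other genes and is small beside the gap between -1.65 and -0.66. The call therefore does not show that the 2 replicate numbers gave AREG a like size of difference. Without control replicate 1 the difference was -0.14, and without control replicate 2 it was -2.17. The call with the replicate term was lost with a pseudocount of 0.1 (adjusted p 0.0533), with no filter on low values (0.217) and without the genes described below that hold a 7-base word (0.0683).

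AREG has a near-identical copy in the authors' annotation, AREGB, whose gene ID is not in GENCODE 29, so reads were split between the copies and the AREG level is uncertain. AREGB was at 24.3 FPKM (control 1) and 5.96 FPKM (control 2), compared with 7.82 and 4.0 FPKM in the knockdown libraries. Its order over the libraries was that of AREG, and it took 37.7% to 42.6% of their sum in every library. With both copies summed, the levels were 64.5 and 15.1 FPKM in the control libraries, against 19.9 and 9.4 FPKM after knockdown, a log2 difference of -1.14 with adjusted p of 0.854 without and 0.0418 with the replicate term. The sum stood above TGFA in control replicate 1 alone.

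EREG, epiregulin (ENSG00000124882, chromosome 4, 75230859 to 75254468, GRCh37), lies beside AREG and had the widest range in FPKM of the 10 genes. Its levels were 126 and 48.9 FPKM in control cells and 83.8 and 55.4 FPKM in knockdown cells. Both replicate 1 libraries stood above both replicate 2 libraries, and the knockdown values lay between the controls. The log2 difference was -0.58 in replicate 1 and 0.18 in replicate 2. The fit gave -0.2 with a standard error of 0.46 and an adjusted p of 0.976 without the replicate term, and 0.16 and 0.508 with it. Without control replicate 1 its difference turned to 0.47.

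**Figure D2:**
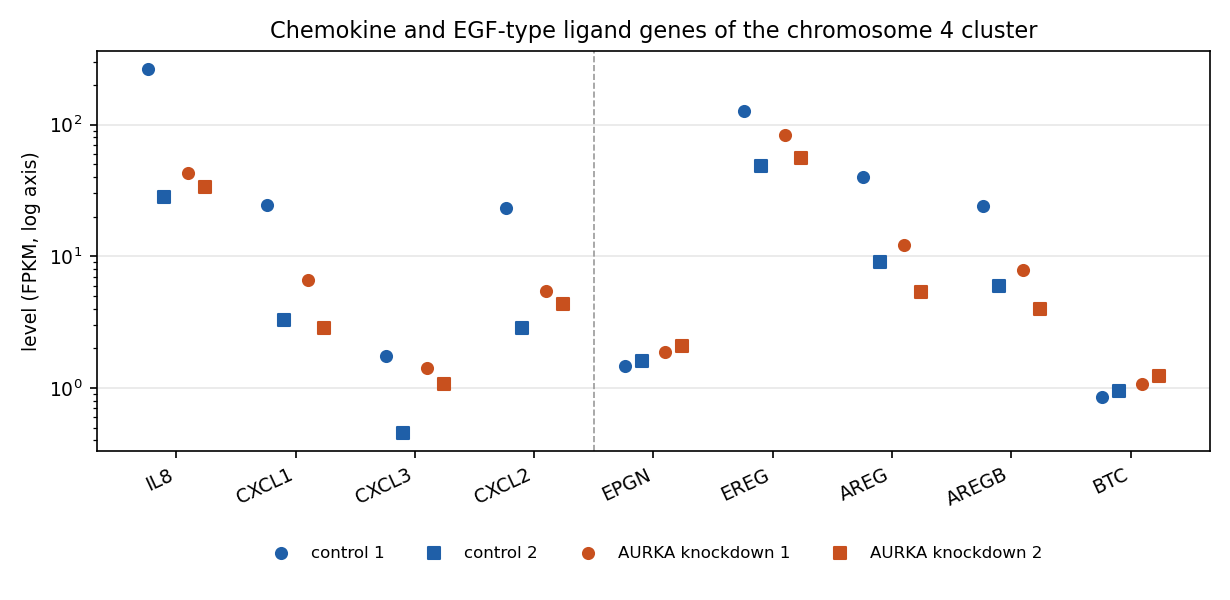
Levels in FPKM (log axis) of 9 genes in their order along chromosome 4, chemokines left and EGF-type ligands right of the dashed line, with controls in blue, knockdown in orange, circles for replicate 1 and squares for replicate 2. Control 1 is the highest library for IL8, CXCL1, CXCL2, CXCL3, EREG, AREG and AREGB, and not for EPGN or BTC.

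The genes of AREG, EREG, EPGN and BTC lie in 1 region of chromosome 4 with a group of chemokine genes. Control replicate 1 stood above control replicate 2 by 2.57-fold for EREG, 4.41-fold for AREG and 4.07-fold for AREGB. Of the chemokines of the same region only those named here were read. Their ratio was 9.38 for IL8 (CXCL8), 7.54 for CXCL1, 8.1 for CXCL2 and 3.81 for CXCL3. For the ligands EPGN and BTC it was 0.932 and 0.896. ERBB4, a low gene on chromosome 2, had a ratio of 6.53, so such ratios were not confined to this region. How many of all tested genes had such a ratio was not counted. IL8 was at 265 FPKM (control 1) and 28.2 FPKM (control 2), compared with 42.7 and 33.9 FPKM in the knockdown libraries. The part of this difference between the control libraries in the AREG and EREG values was not tested.

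The 250 bases before the transcription starts of AREG, EREG and HBEGF are shown because AREG and EREG were both highest in control replicate 1 while HBEGF had the same level in both controls. The sequences are RefSeq's on GRCh38.p14, 5′ to 3′ on the gene's strand, at chr4:74444886-74445135 (AREG, plus strand), chr4:74364895-74365144 (EREG, plus strand) and chr5:140346604-140346853 (HBEGF, minus strand). Capitals mark matches, on either strand, to the cyclic AMP response element TGACGTCA, the AP-1 element TGANTCA, the TATA box TATAAA and the GC box GGGCGG.

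AREG: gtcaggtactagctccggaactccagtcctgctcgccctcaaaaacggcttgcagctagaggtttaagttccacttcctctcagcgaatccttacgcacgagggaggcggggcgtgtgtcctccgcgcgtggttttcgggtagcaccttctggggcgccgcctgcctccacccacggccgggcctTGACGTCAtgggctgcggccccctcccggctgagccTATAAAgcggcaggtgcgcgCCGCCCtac

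EREG: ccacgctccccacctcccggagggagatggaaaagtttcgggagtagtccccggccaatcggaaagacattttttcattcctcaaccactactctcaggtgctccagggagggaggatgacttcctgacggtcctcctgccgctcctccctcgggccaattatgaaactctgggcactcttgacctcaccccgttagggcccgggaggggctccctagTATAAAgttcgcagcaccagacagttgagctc

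HBEGF: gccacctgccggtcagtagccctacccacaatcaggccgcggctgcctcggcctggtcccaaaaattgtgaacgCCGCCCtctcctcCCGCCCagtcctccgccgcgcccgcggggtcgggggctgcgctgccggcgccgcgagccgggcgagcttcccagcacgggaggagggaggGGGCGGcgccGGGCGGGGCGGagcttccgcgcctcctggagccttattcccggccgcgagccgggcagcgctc

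The AREG window holds 1 cyclic AMP response element, whose first base lies 65 bases before the start, 1 TATA box 29 bases before the start and 1 GC box. That response element stands in 1.65% of 35116 RefSeq windows of this length. The EREG window holds a TATA box 32 bases before its start, a motif in 10.7% of the windows. The HBEGF window holds no TATA box and 5 GC boxes, a pair of which overlaps, and 42.6% of the windows hold at least 1. None of the 3 windows holds the AP-1 element, which stands in 6.57% of the windows. TGFA and ERRFI1 were also highest in control replicate 1. Their windows, not shown, hold no match to the TATA box or the cyclic AMP response element. The windows of TGFA's 2 starts hold 3 and 0 GC boxes, and that of ERRFI1 holds 1. Whether these motifs go with the levels was not tested. All these matches describe the sequence and are not measured binding sites.

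TGFA, which resembles EGF in its binding to EGFR (ENSG00000163235, chromosome 2, 70674411 to 70781147, GRCh37), was at 30.0 and 21.5 FPKM in the control libraries, against 27.9 and 22.6 FPKM after knockdown. Both replicate 1 libraries were higher than both replicate 2 libraries, and the groups overlapped. The log2 difference was -0.02 with a standard error of 0.21 and an adjusted p of 0.998 without the replicate term, and 0.09 and 0.935 with it. Its main transcript ENST00000295400 made up 74.1% to 79.4% of the gene in each library.

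BTC, betacellulin, was at 0.85 and 0.948 FPKM in control cells and 1.07 and 1.24 FPKM in knockdown cells, with rough fragment numbers of 25 to 82 per library. The log2 difference was 0.18 with a standard error of 0.23 (adjusted p 0.938, and 0.585 in the fit with the replicate term). The ligands outside the 10 genes were low as well. EGF was at 1.31 FPKM (control 1) and 0.782 FPKM (control 2), compared with 1.84 and 1.41 FPKM in the knockdown libraries, EPGN at 1.48 and 1.59 against 1.88 and 2.1 FPKM, and NRG2 at 3.68 and 3.66 against 3.74 and 2.34 FPKM. NRG3 and NRG4 did not reach 1 FPKM in any library.

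NRG1, the neuregulin ligand (ENSG00000157168, chromosome 8, 31496901 to 32622548, GRCh37), was at 82.2 and 80.9 FPKM in the control libraries, against 81.9 and 72.2 FPKM after knockdown. The groups overlapped, with a log2 difference of -0.08, a standard error of 0.12 and an adjusted p of 0.947 without the replicate term, and 0.08 and 0.593 with it. Its level was spread over 14 of 19 annotated transcripts, the other 5 being listed at 0 in every library. ENST00000287842, with a coding length of 645 codons, took 26.0% to 29.1% of the gene. ENST00000518206, an annotated transcript of 886 bases, took 35.9% and 25.4% in the controls and 29.5% and 19.1% in the knockdown. With transcripts under 1000 bases left out of the sum, NRG1 was at 52.7 and 59.7 FPKM in control cells and 56.9 and 57.1 FPKM in knockdown cells.

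Together the 6 ligands summed to 315 FPKM (control 1) and 197 FPKM (control 2), compared with 227 and 176 FPKM in the knockdown libraries. EREG and NRG1 made up most of the sum in every library. HBEGF took 11.5% and 18.2% in the controls and 9.04% and 11.0% in the knockdown, and AREG took 12.7% and 4.62% against 5.33% and 3.06%. By mean level in the controls the order was EREG, NRG1, HBEGF, TGFA, AREG and BTC. EREG and NRG1 did not differ there beyond their spread, nor did AREG from HBEGF or TGFA, since the AREG controls lay on both sides of those genes. The sum of AREG and AREGB, at 64.5 and 15.1 FPKM, did so too. In the knockdown the order was NRG1, EREG, TGFA, HBEGF, AREG and BTC, and NRG1 and EREG again overlapped. There the sum of AREG and AREGB, at 19.9 and 9.4 FPKM, overlapped HBEGF, at 20.6 and 19.4 FPKM. The first place of NRG1 in the knockdown rested on short transcripts. Without those under 1000 bases NRG1 was at 56.9 and 57.1 FPKM and EREG at 83.8 and 55.4 FPKM, so EREG had the higher mean.

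**Figure D3:**
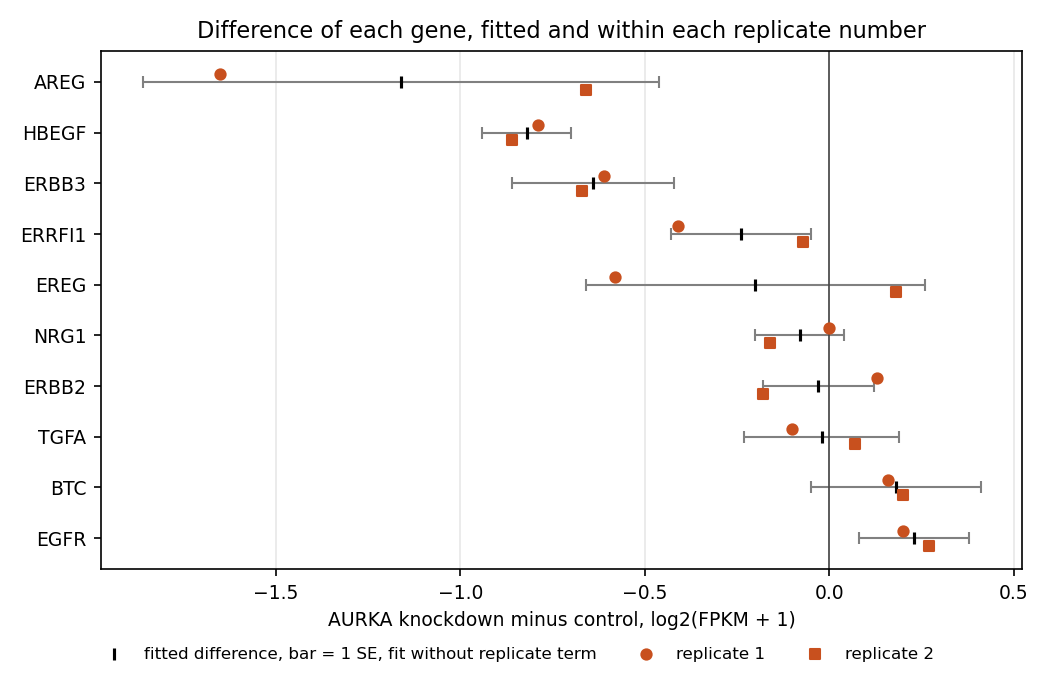
Knockdown minus control on the log2(FPKM + 1) scale for each gene: the black tick is the fitted difference, the bar 1 standard error of the fit without the replicate term, and orange circles and squares are the differences in replicates 1 and 2. HBEGF shows -0.79 and -0.86 in the 2 replicate numbers, AREG -1.65 and -0.66, and EREG falls on both sides of 0.

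EGFR, the receptor for most of these ligands (ENSG00000146648, chromosome 7, 55086713 to 55324313, GRCh37), was at 91.3 and 75.3 FPKM in the control libraries, against 105 and 90.8 FPKM after knockdown. The knockdown library was the higher in each replicate number, by log2 differences of 0.2 and 0.27, but the groups overlapped. The fit gave 0.23 with a standard error of 0.15 and an adjusted p of 0.856 without the replicate term, and 0.08 and 0.148 with it, so EGFR was not called. With 1 library left out the difference lay between 0.09 (without control replicate 2) and 0.37 (without control replicate 1). The means were 83.3 ± 11.3 and 97.9 ± 10.0 FPKM (SD, n = 2 each). Of the 12137 tested genes, FOXK2, RAPGEF2 and OPTN had the most similar profiles over the 4 libraries, by root-mean-square distance of centred log2(FPKM + 1) values. With 4 libraries such likeness is common, and 162 tested genes lay within a distance of 0.05.

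The full-length EGFR transcript ENST00000275493, with a coding length of 1210 codons, was at 59.9 and 64.4 FPKM in control cells and 78.1 and 79.0 FPKM in knockdown cells. At this transcript the groups did not overlap, and for gene levels 19.4% of all tested genes had both knockdown libraries above both controls. The 3 annotated transcripts with coding lengths of 405, 628 and 705 codons, known as soluble forms that lack the kinase domain, summed to 14.8 FPKM (control 1) and 7.08 FPKM (control 2), compared with 16.8 and 7.53 FPKM in the knockdown libraries. Their share of the gene was 16.2% and 15.9% in the replicate 1 libraries and 9.39% and 8.3% in the replicate 2 libraries, so it differed more between the replicate numbers than between the groups. Shares of transcripts are estimates from short reads and were not tested.

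**Figure D4:**
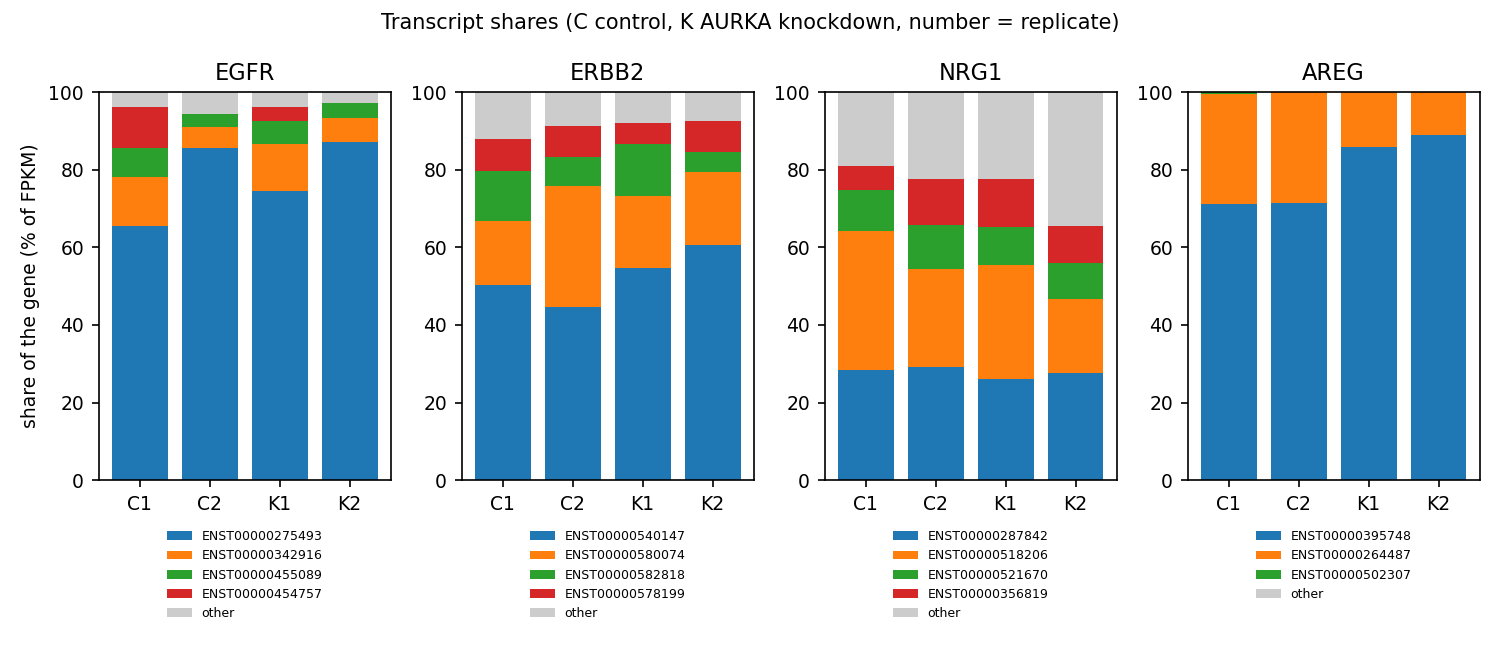
Share of each gene's FPKM given to its annotated transcripts in each library (C control, K knockdown, with the replicate number), for EGFR, ERBB2, NRG1 and AREG; the 4 largest are coloured (all 3 for AREG) and the rest grey. ENST00000275493 makes up 65.5% to 87.1% of EGFR, and ENST00000264487 makes up 28.4% and 28.5% of AREG in the controls and 14.1% and 11.2% in the knockdown.

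At AREG the estimated transcript shares lay apart between the groups, which was not tested. ENST00000395748 made up 71.2% and 71.5% of the gene in the controls and 85.9% and 88.8% in the knockdown. ENST00000264487 made up the rest but for a trace, at 11.4 and 2.6 FPKM in the control libraries, against 1.7 and 0.605 FPKM after knockdown. These shares did not overlap between the groups, but how often that holds over all transcripts was not counted. For gene levels, both knockdown libraries lay below both controls in 16.6% of tested genes and above both in 19.4%. Since AREG shares reads with AREGB, its transcript shares are also uncertain.

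ERBB2, the partner receptor that is amplified in another class of breast cancers (ENSG00000141736, chromosome 17, 37827374 to 37884915, GRCh37), was at 18.4 and 18.9 FPKM in control cells and 20.2 and 16.5 FPKM in knockdown cells. EGFR stood 3.99 to 5.5 times above ERBB2 in every library. Replicate 1 gave ERBB2 a difference of 0.13 and replicate 2 one of -0.18, while the fit gave -0.03 with a standard error of 0.15 (adjusted p 0.995, and 0.917 in the fit with the replicate term). The transcript ENST00000540147 took 44.7% to 60.7% of the gene. ENST00000269571, the principal transcript in GENCODE 29, was listed at 0 in every library, so the division among the 14 annotated transcripts is uncertain. Without transcripts under 1000 bases ERBB2 was at 13.0 FPKM (control 1) and 11.3 FPKM (control 2), compared with 13.7 and 12.2 FPKM in the knockdown libraries.

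ERBB3, a receptor for NRG1 (ENSG00000065361, chromosome 12, 56473640 to 56507691, GRCh37), was at 2.52 and 2.23 FPKM in the control libraries, against 1.31 and 1.04 FPKM after knockdown. The groups did not overlap, and the log2 differences were -0.61 and -0.67 in the replicate numbers. The fit gave -0.64 with a standard error of 0.22 and an adjusted p of 0.671 without the replicate term, and 0.16 and 0.083 with it. With median-of-ratios scaling and the replicate term, where 9.96% of all tested genes were called, its adjusted p was 0.0297. Rough fragment numbers were 110 to 200 per library. The difference in replicate 2 rested on short transcripts. Without those under 1000 bases ERBB3 was at 2.52 and 1.06 FPKM in control cells and 0.945 and 1.04 FPKM in knockdown cells. The adjusted p with the replicate term was then 0.251. The like differences of -0.61 and -0.67 thus rested on different transcripts.

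ERBB4, the second receptor for NRG1 and not among the 10 genes, was at 2.32 FPKM (control 1) and 0.356 FPKM (control 2), compared with 4.01 and 1.58 FPKM in the knockdown libraries. The groups overlapped, and its log2 difference was 0.76 with a standard error of 0.53 (adjusted p 0.864 without and 0.0656 with the replicate term).

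ERRFI1 (ENSG00000116285, chromosome 1, 8064463 to 8086368, GRCh37) had the highest mean of the 10 genes in both groups. It was at 143 and 102 FPKM in the control libraries, against 107 and 97.0 FPKM after knockdown. Control replicate 1 stood above the other 3 libraries, which lay within 97.0 to 107 FPKM. Replicate 1 gave a log2 difference of -0.41 and replicate 2 one of -0.07, while the fit gave -0.24 with a standard error of 0.19 (adjusted p 0.891 without and 0.225 with the replicate term). Without control replicate 1 the difference was 0.01. Its principal transcript ENST00000377482 was at 129 and 92.5 FPKM in control cells and 98.3 and 87.3 FPKM in knockdown cells.

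Genes that act with the receptors were read from 6 lists, and in each the median log2 difference lay between -0.1 and 0.1, against 0.01 for all tested genes. Of all tested genes 0% were called without and 3.52% with the replicate term. Of 8 tested genes of ligand shedding 0 were called in either fit, which says nothing particular about the list. ADAM17, the main sheddase of AREG, HBEGF and TGFA, was at 30.4 FPKM (control 1) and 22.1 FPKM (control 2), compared with 30.6 and 27.9 FPKM in the knockdown libraries, and ADAM10 was at 60.0 and 62.2 against 63.7 and 64.2 FPKM. The largest differences of that list were those of RHBDF2, the iRhom that guides ADAM17 to the cell surface (23.1 and 13.3 against 16.6 and 10.6 FPKM), and ADAM12 (1.71 and 1.61 against 1.9 and 2.36 FPKM).

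Of 16 tested inhibitors and ubiquitin ligases of the receptors 0 were called, against 3.52% of all tested genes with the replicate term. A difference below 0 was seen in 12 of the 16 and in 5786 of all 12137 tested genes. All 12 lay below 0 in replicate 1. In replicate 2 LRIG1, LRIG3, CBL, NEDD4L, SOCS5, PTPN12 and USP8 among them lay above 0, so no common shift is read from that count. RNF41, a ubiquitin ligase for ERBB3, was at 31.0 and 27.9 FPKM in the control libraries, against 21.5 and 22.0 FPKM after knockdown (log2 -0.42, adjusted p 0.627 without and 0.0644 with the replicate term). PTPN12, a phosphatase that acts on receptor tyrosine kinases, was at 114, 114 and 119 FPKM in control replicate 2, knockdown replicate 1 and knockdown replicate 2. In control replicate 1 PTPN12 summed to 1360 FPKM, because the transcript ENST00000440186 was listed at 1270 FPKM there and at 0 in the other 3 libraries. Without that transcript PTPN12 was at 91.5 and 114 FPKM in the controls.

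**Figure D5:**
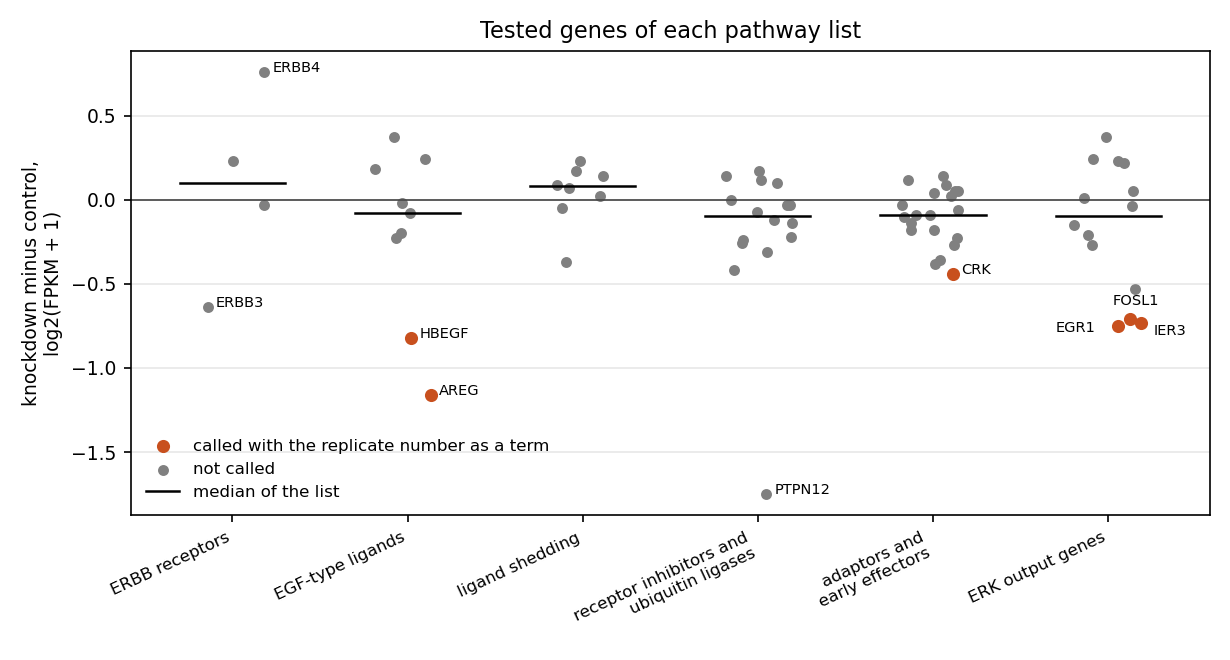
Knockdown minus control on the log2(FPKM + 1) scale for the tested genes of 6 lists, 1 point a gene, with a line at each list's median; orange points were called with the replicate number as a term. HBEGF, AREG, CRK, EGR1, FOSL1 and IER3 are orange, and PTPN12 at -1.75 rests on 1 transcript in 1 library.

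Among 20 adaptors and early effectors 1 was called with the replicate term and 0 without it, a share near the 3.52% and 0% of all tested genes. CRK, an adaptor with SH2 and SH3 domains, was at 41.1 and 45.3 FPKM in control cells and 29.7 and 33.7 FPKM in knockdown cells (log2 -0.44, adjusted p 0.627 without and 0.0442 with the replicate term). GRB2, the adaptor that links the receptors to RAS, was at 66.2 FPKM (control 1) and 71.2 FPKM (control 2), compared with 51.3 and 54.0 FPKM in the knockdown libraries (log2 -0.38, adjusted p 0.628 and 0.0535). For both genes the groups did not overlap, and 16.6% of all tested genes had both knockdown libraries below both controls. In this list PTPN11, PIK3CB, CRKL, VAV2 and STAT3 had that order too.

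Of 14 genes driven by ERK, the kinase at the end of the RAS pathway, 3 were called lower and 0 higher with the replicate number as a term. Without it 0 were called. By sign alone, 8 of the 14 lay below 0 and 6 above 0. Of all tested genes 1.92% were called lower and 1.6% higher with that term, and 0% without it. FOSL1 was at 207 and 216 FPKM in the control libraries, against 127 and 130 FPKM after knockdown (log2 -0.71, adjusted p 0.315 and 0.00852), and like HBEGF it had nearly equal values within each group. EGR1 and IER3 had log2 differences of -0.75 and -0.73, with groups that overlapped (adjusted p 0.822 and 0.884 without the replicate term, 0.0132 and 0.0327 with it). DUSP6, an ERK phosphatase that ERK induces, lay the other way, at 125 and 149 FPKM in control cells and 194 and 160 FPKM in knockdown cells, and was not called (adjusted p 0.779 and 0.156).

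The word GAGACCT, found earlier in these data in the 3′ UTRs of many genes that were lower in the knockdown, stood in 41.0% of 229 searched genes called lower with the replicate term, in 6.35% of 189 called higher and in 12.4% of 11703 searched tested genes. Since the word was found in these same data, its share among genes called lower is no test of it. Neither HBEGF nor AREG holds the word in a GENCODE 29 3′ UTR. Of the 10 genes EGFR and NRG1 hold it, and neither was called. Most genes that hold the word were not called: of 1450 tested, 94 were called lower and 12 higher. Nothing particular is read from these 2 genes. The EGFR site is shown with the word in capitals, since EGFR was the higher in the knockdown library of each replicate number, and starts at base 1942 of the 3′ UTR of ENST00000275493.

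EGFR: cctgcctgagGAGACCTggaagggagg

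Without all genes that hold the word, the fit with the replicate term gave HBEGF an adjusted p of 0.0205. The part of the word in the levels of EGFR and NRG1 was not tested.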

How the data were processed

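RNA was sequenced from 2 control and 2 AURKA knockdown libraries of MDA-MB-231 cells. The authors deposited 1 table per library with values for 81493 transcripts. The header names no unit, and the deposited values were read as FPKM because they are not whole and their totals differ. Tools listed in the submitters' processing notes are bcl2fastq 2.19 and HTSeq 0.8.0, with the build hg38, but loci end at 191013719 on chromosome 4, so coordinates are GRCh37, printed as the files give them (whether starts count from 0 or 1 is not stated). Which program computed FPKM was not stated. The values of 1 gene of the marker lists are not reported here. Strand use is not stated, so overlapping genes cannot be told apart.

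Values were summed by gene ID to 20137 genes, leaving out 9 genes with no transcript in all 4 tables. limma 3.58.1 (R 4.3.3, trend) was run on log2(FPKM + 1) with a filter of 1 FPKM in 2 libraries, two-sided, with Benjamini-Hochberg adjustment. The pseudocount understates changes of low genes. The script was tested on simulated data. In limma each gene's spread is moved toward that of other genes at its level, which weighs much with so few libraries. P-values measure that combined spread between these samples, which may be technical. Named genes were the 10 genes, the other family members by level, AURKA, called list genes, the 2 largest differences per list and the 3 profiles nearest EGFR. ADAM17, ADAM10, DUSP6 and the chemokines were chosen after their values were seen. The 10 genes and the lists were chosen with earlier results of these data known. Depth was estimated from low values of genes with 1 transcript. Promoters are from RefSeq (GRCh38.p14), and windows were read for all of the 10 genes but ERBB3 and NRG1. Alternatives changed scaling, pseudocount, filter, replicate term, libraries and transcripts.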

Additional observations from a re-analysis of the deposited data

Results flagged for a closer look

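EREG, ERBB2 and TGFA had differences of opposite sign in the 2 replicate numbers. The log2 difference between knockdown and control was -0.58 in replicate 1 and 0.18 in replicate 2 for EREG, so replicate 2 lay 0.76 above replicate 1. For ERBB2 it was 0.13 in replicate 1 and -0.18 in replicate 2, a change of -0.31. For TGFA it was -0.1 in replicate 1 and 0.07 in replicate 2, a change of 0.17. With 1 library of each group per replicate number, none of these differences between the replicate numbers was tested.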

How the results depend on the processing

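HBEGF was lower in the knockdown under all 23 settings tried, with log2 differences of -0.86 to -0.78, and AREG and ERBB3 were lower under all 23 and 21 settings that gave a value. Many of these settings could not move a fitted difference. The replicate term leaves it unchanged in this design, and filters or removal of other genes do not alter a gene's own values. The ends of the HBEGF range came from fits with 1 library left out, so the settings are not independent checks. The adjusted p of HBEGF was 0.159 to 0.797 in fits without the replicate term and 5.04e-05 to 0.12 in fits with it. With the replicate block, that is with the replicate number as a term, 427 genes and 2 of the 10 genes were called, against 0 and 0 without it. Same-numbered libraries deviated together across genes (correlation 0.645), but with 2 pairs the number alone does not pair the samples. Settings with the replicate term that were added after seeing the data called 1209 genes with median-of-ratios scaling (3 of the 10 genes), 793 with upper-quartile scaling (2), 289 with a pseudocount of 0.1 (1), 443 with a filter at 5 FPKM (2), 129 without genes holding GAGACCT (1), 427 with AREG and AREGB summed (2), 417 with transcripts in all 4 tables (2) and 767 without transcripts under 1000 bases (2). With no filter and the replicate term 0 genes were called. Without the replicate term, median-of-ratios scaling called 2 genes and a filter at 5 FPKM called 1. Leaving out 1 library called 6 to 14 genes and 0 of the 10. The causes of these changes were not tested.

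Directions turned for genes that were never called. With 1 library left out, the log2 difference ranged from -0.17 to 0.11 for ERBB2, -0.88 to 0.47 for EREG, -0.25 to 0.21 for TGFA, -0.17 to 0.01 for NRG1 and -0.48 to 0.01 for ERRFI1. Without transcripts under 1000 bases it was 0.09 for ERBB2, 0.03 for TGFA and 0.02 for NRG1, in both fits. A lone library left in a group was assumed to vary like the other group. BTC and ERBB3 rest on few fragments, which limits the precision of their folds.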
